A study of Mus musculus with 6 samples.

Results

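The 9 B lineage genes described here are Ighm, Cd79a, Cd79b, Vpreb1, Vpreb3, Blnk, Ebf1, Pax5 and Dntt, which code for parts of the pre-B cell receptor, its signalling chains and adaptor, and the factors and the enzyme that act while a B cell precursor assembles it. They were chosen by name, as the rows of a gene-level array table whose name equals the gene's symbol in capitals (IGHM, CD79A, CD79B, VPREB1, VPREB3, BLNK, EBF1, PAX5 and DNTT), out of 28888 genes on the array. A row under its own name was found for 7 of them. Ighm was read from the row IGH-6, an older symbol of the same gene, which brings the number with a row to 8. No row carried the name of Cd79a or an older name of it, and that gene was not analysed here.

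The samples were LT-HSC, long-term haematopoietic stem cells, the cells that renew all blood lineages for life, sorted from the bone marrow of male mice of a strain labelled C56 Bl/6 at an age of 2 months. The SSA group held 3 arrays of cells taken 2 days after sex steroid ablation, and the sham group held 3 arrays of cells taken 2 days after a sham operation. The labels number the samples within a group but do not say that each came from another animal, and p-values can then cover no more than sample-to-sample spread, which may be technical. The study asked how the transcripts of these cells differed early after sex steroids were removed, and the comparison below puts that question to genes whose products belong to the B lineage. The surface markers used for the sort are not given in the sources used here.

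In B cell development a precursor rearranges its heavy chain locus, and the first heavy chain protein, the mu chain from Ighm, is displayed with a surrogate light chain made of the Vpreb1 and Igll1 products and with the signalling pair Cd79a and Cd79b. Signals from this pre-B cell receptor pass through the adaptor Blnk. The transcription factors Ebf1 and then Pax5 set up and hold the B lineage programme, and stem cells are not known for running it, though RNA from lymphoid genes is well described in early progenitors that have begun to lean towards lymphoid fates.

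No B lineage gene differed between SSA and sham cells beyond the spread between arrays. The 5 genes that were measurable were Ighm, Cd79b, Vpreb1, Vpreb3 and Dntt. On the normalised log2 scale 4 of these 5 had a higher mean after SSA and 1 a lower one, where 48.6% of all genes kept were lower. The raw means of Ighm and Cd79b were lower after SSA, at 6782.8 against 7150.3 and at 523.8 against 558.5. The number called at an adjusted p under 0.05 was 0 in limma, against 0.00924% of all 10821 genes kept, where the 1 gene called was Ear6, a ribonuclease of eosinophils that is not a B lineage gene. Likewise 0 had an unadjusted p under 0.05 in that fit, against 8.48% of the genes kept. No other setting of the fit called one at an adjusted p under 0.05. The lowest limma adjusted p in those settings was 0.074, for Vpreb1 with array weights. In none of the 5 did the SSA and sham arrays separate without overlap, against 14.6% of the genes kept. Blnk, Ebf1 and Pax5 were at or near background on nearly every array. In bulk RNA such as this, fewer cells of a type and less RNA per cell cannot be told apart.

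**Figure D1:**
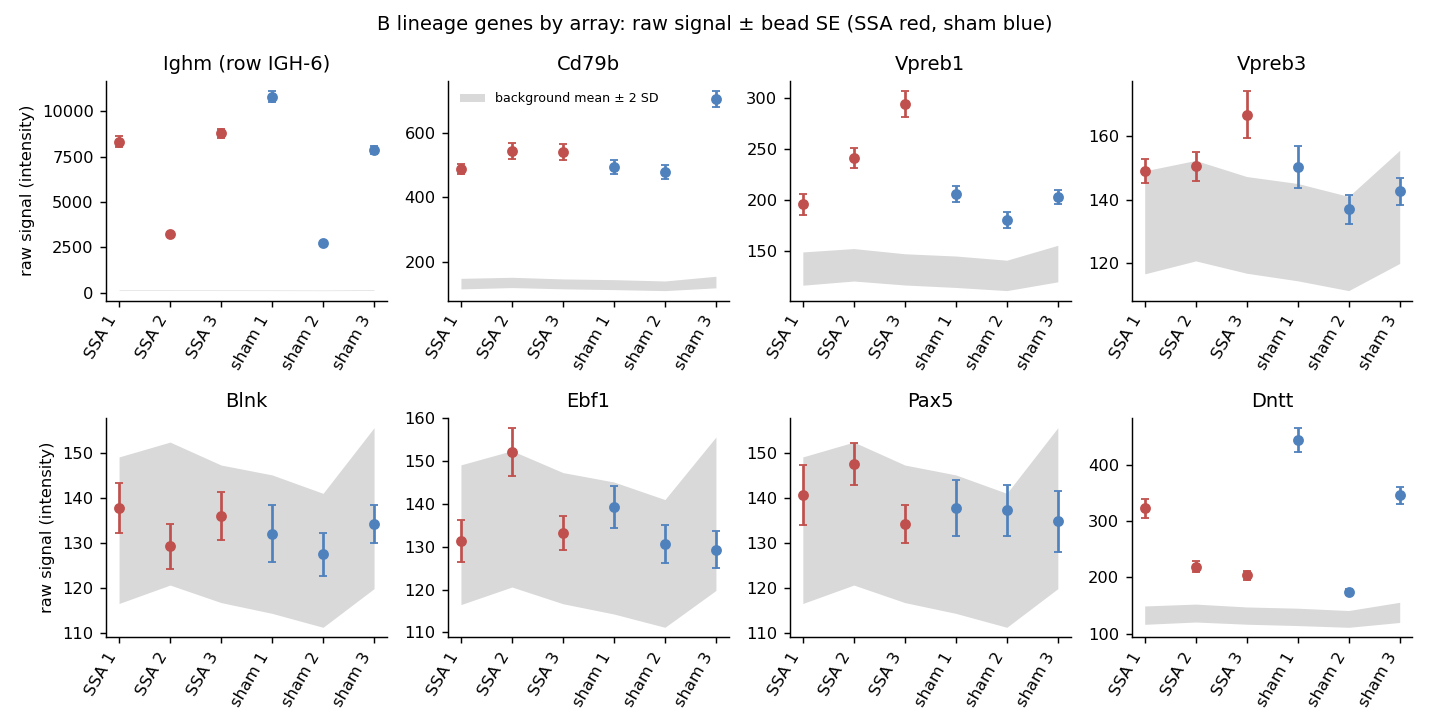
Raw signal (linear intensity, y axis, scale differs between panels) of the 8 B lineage genes with a row, on each of the 3 SSA arrays (red) and 3 sham arrays (blue). Points are the array's signal, bars the standard error over its beads, and the grey band the array's background mean ± 2 SD. Ighm on SSA 2 and sham 2 lies far below the other 4 arrays, and Blnk and Pax5 lie within or at the edge of the band.

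Ighm codes for the constant part of the mu heavy chain. The raw signals were 8337.5 on SSA 1, 3215.6 on SSA 2 and 8795.4 on SSA 3, against 10814 on sham 1, 2750 on sham 2 and 7886.5 on sham 3. Each group thus held 1 low array and 2 high ones, and the groups overlapped over nearly their whole range. The highest array was 3.93 times the lowest. The standard error over beads, which covers scatter within an array only, was between 69.3 and 313.6 on the 6 arrays. The cause of the gap between low and high arrays was not tested. On the normalised log2 scale Ighm averaged 12.58 ± 0.95 in SSA cells and 12.57 ± 0.91 in sham cells (SD, n = 3 each). The log2 difference, SSA minus sham, was 0.015 ± 0.56 (SE, limma adjusted p = 0.997), with a 95% interval from -1.28 to 1.31. That interval, from the fit with group as the only term, takes in a 2-fold difference in either direction. With the replicate number as a block the SE was 0.21. Which arrays entered the fit set the sign, which was -0.45 without sham 2, -0.28 without SSA 1 and -0.24 without SSA 3.

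The genes whose array-to-array profile was most like that of Ighm were looked up over all genes kept, as the mean absolute difference between log2 profiles that were each centred on their own mean over the 6 arrays. The closest was Igkc, the constant part of the kappa light chain, at 0.14. It read 14759, 5691.7 and 12982 on the SSA arrays, against 18374, 6112.1 and 14587 on the sham arrays. The same 2 arrays, SSA 2 and sham 2, were again the low ones. The Igkc log2 difference was -0.18 ± 0.48 (SE, limma adjusted p = 0.926). Next came the row LOC100047628, which matched no current symbol, at 0.16, and Slpi, which codes for a secreted inhibitor of leukocyte proteases, at 0.24. Cd79b, whose product works in the same receptor, stood at 0.68 from Ighm, and Vpreb1 at 0.84. These distances describe 6 arrays and carry no test.

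**Figure D2:**
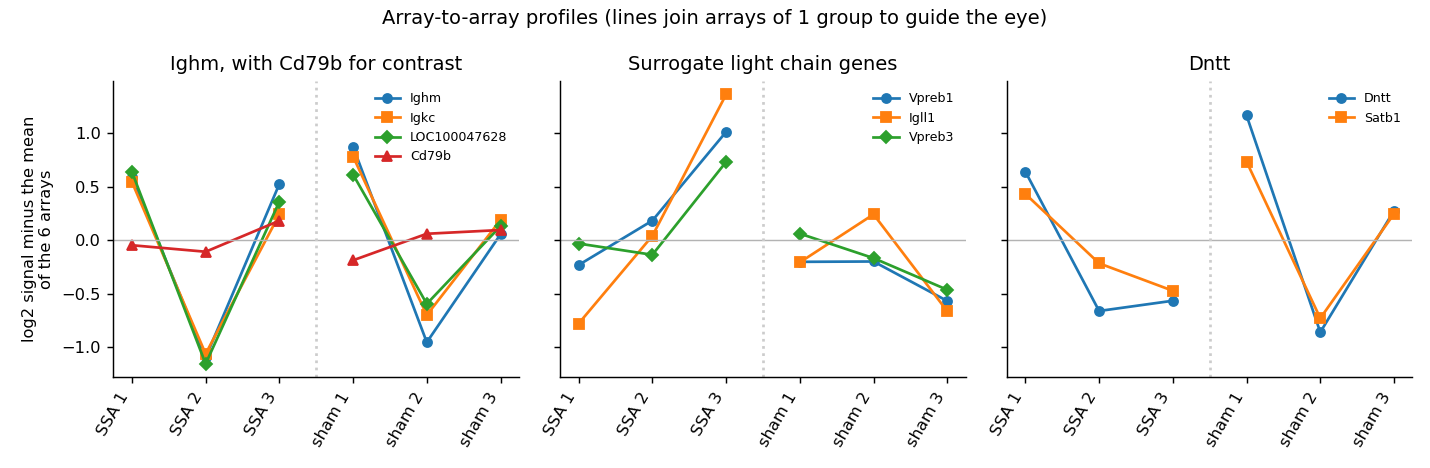
Log2 signal on each array minus the gene's mean over the 6 arrays (y axis) for Ighm, Igkc, LOC100047628 and Cd79b (left), for Vpreb1, Igll1 and Vpreb3 (middle) and for Dntt and Satb1 (right), with the 3 SSA arrays left of the 3 sham arrays. Lines join arrays of 1 group to guide the eye. Ighm and Igkc dip together on SSA 2 and sham 2 while Cd79b stays close to its mean, and Vpreb1, Igll1 and Vpreb3 each peak on SSA 3.

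Other immunoglobulin rows were examined after the Ighm values had been seen. The table held 93 such rows for heavy, kappa and lambda genes, most of them variable segments, and 27, 23 and 30 of them were detected on SSA arrays 1, 2 and 3, against 36, 22 and 34 on sham arrays 1, 2 and 3. SSA 2 and sham 2 again had the fewest. The brightest variable row, IGH-VJ558, was low on SSA 2 and sham 2 as Ighm was. It read 4762.3, 1749.5 and 4203.5 on the SSA arrays, against 4200.2, 2800 and 4000.5 on the sham arrays. So was IGH-V11, at 235.8, 141 and 563.8 on the SSA arrays, against 1079.5, 148.4 and 393.7 on the sham arrays. Other variable rows did not follow Ighm on every array. IGL-V1, a lambda variable gene, read 1475.5, 165.5 and 2235.9 on the SSA arrays, against 1032.3, 1104.1 and 1232.2 on the sham arrays, so that it was bright on sham 2 where Ighm was low. The row of kappa segment IGKV3-2 was at 364.2, 171.6 and 352.5 on the SSA arrays, against 1747.8, 137 and 604.4 on the sham arrays, with sham 1 alone far up. The row of IGKV9-120 was at 839.4, 484.3 and 131.7 on the SSA arrays, against 472.2, 127.7 and 133.5 on the sham arrays, and the row of IGKV12-98 was detected on 2 sham arrays alone, at 361 and 614.6. Some variable segments were thus bright on some arrays and at background on others within 1 group. Segments of a family are close in sequence, and which of them a row measured is uncertain.

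**Figure D3:**
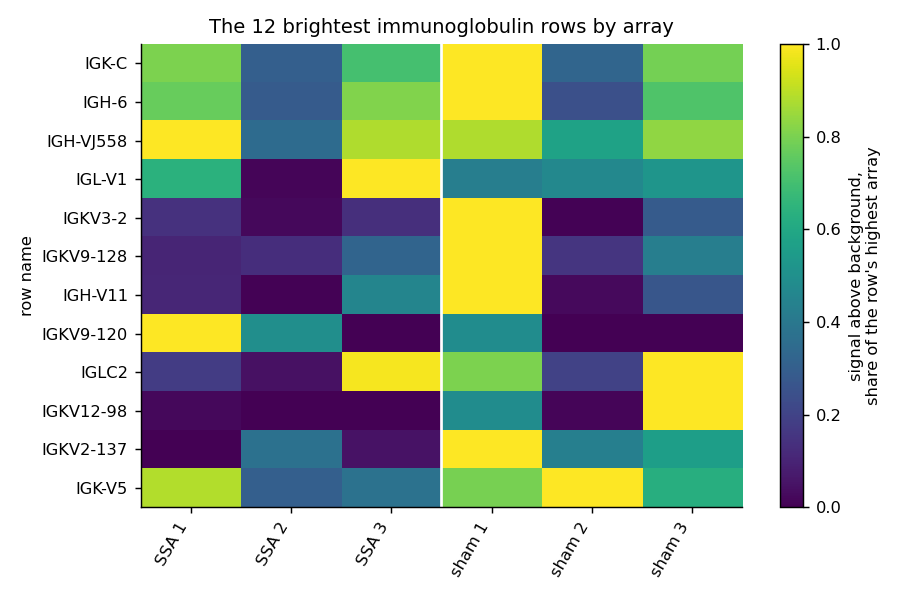
Signal above background of the 12 brightest immunoglobulin rows (y axis, row names) on each array (x axis, 3 SSA arrays left of the white line and 3 sham arrays right of it), as a share of the row's highest array (colour, 0 to 1). The constant regions IGK-C and IGH-6 share 1 pattern, and the variable row IGH-VJ558 is also lowest on SSA 2 and sham 2. The variable rows IGKV3-2, IGKV9-120 and IGKV12-98 each have a different brightest array.

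Cd79b codes for one of the 2 signalling chains that partner the receptor in the membrane. It read 488.1, 543.5 and 539.8 on the SSA arrays, against 493.4, 478.6 and 703.6 on the sham arrays. Only sham 3 stood away from the rest, and not after normalisation, where the 6 arrays lay within 0.37 log2 units. The normalised log2 signal was 8.74 ± 0.15 in SSA cells and 8.72 ± 0.15 in sham cells (SD, n = 3 each), a difference of 0.020 ± 0.16 (SE, limma adjusted p = 0.978). The 95% interval ran from -0.34 to 0.38, the narrowest among the B lineage genes that were detected on every array. Without SSA 3 or sham 1 the difference took the other sign, at -0.066 and -0.070.

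Vpreb1 codes for the part of the surrogate light chain that resembles a variable domain. It read 195.6, 241.1 and 294.1 on the SSA arrays, against 205.5, 180.3 and 203.0 on the sham arrays. SSA 2 and SSA 3 were above every sham array, and SSA 1 lay among them. The normalised log2 signal was 6.95 ± 0.63 in SSA cells and 6.31 ± 0.21 in sham cells (SD, n = 3 each). The difference of 0.64 ± 0.30 (SE), 1.56-fold, had a 95% interval from -0.059 to 1.35 and did not pass (limma adjusted p = 0.594). It was the largest difference among the B lineage genes kept, and without SSA 3 it was 0.30. The near-identical copy Vpreb2 had a row between 116.9 and 127.8 on all arrays, detected on none.

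Igll1, read from the row IGL-5, codes for the constant-like part of the surrogate light chain. It was at 150.2, 183.4 and 246.5 on the SSA arrays, against 167.6, 165.6 and 163.1 on the sham arrays. As with Vpreb1, SSA 3 was the highest array and SSA 1 the lowest of its group, here below every sham array. The log2 difference was 0.42 ± 0.50 (SE, limma adjusted p = 0.819). Its centred profile stood 0.26 from that of Vpreb1, a pair compared after the values had been seen. Genes nearer to Vpreb1 over all genes kept were Lcn12, a lipocalin, at 0.11, Rrp8, which acts on ribosomal RNA genes, at 0.13, and B3galt4, a galactosyltransferase of glycolipid synthesis, at 0.14.

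Vpreb1 and Igll1 lie side by side on chromosome 16, and their start regions are shown because their products form 1 light chain and their signals were highest on the same array. Both are RefSeq windows of GRCm38.p6 on the minus strand, from 250 bases before the gene's start to 50 after it, chr16:16869206-16869505 for Vpreb1 and chr16:16863936-16864235 for Igll1, with 4970 bases between them. Capitals mark CAGGTG, an E-box of the kind bound by E2A proteins, or the same letters read on the other strand.
Vpreb1: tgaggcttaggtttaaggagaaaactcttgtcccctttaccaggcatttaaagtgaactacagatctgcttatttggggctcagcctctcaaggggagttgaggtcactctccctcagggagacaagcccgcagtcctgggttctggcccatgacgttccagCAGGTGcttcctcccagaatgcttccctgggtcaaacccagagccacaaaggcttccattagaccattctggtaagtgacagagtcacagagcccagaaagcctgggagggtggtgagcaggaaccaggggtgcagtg
Igll1: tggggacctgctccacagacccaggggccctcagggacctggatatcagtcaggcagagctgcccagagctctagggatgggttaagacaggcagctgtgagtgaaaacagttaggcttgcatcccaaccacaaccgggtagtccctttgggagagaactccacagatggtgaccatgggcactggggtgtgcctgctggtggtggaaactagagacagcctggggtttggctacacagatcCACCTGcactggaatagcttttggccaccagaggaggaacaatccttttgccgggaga
The E-box begins at -88 from the start of Vpreb1 and at -8 from that of Igll1. Searched on both strands, it stands in 20.2% of the 32851 RefSeq promoter windows of this length. The same search for the EBF motif, TCCC and GGGA with any 2 bases between, for the octamer ATTTGCAT and for TATAAA found no match in these 2 windows, and the shares over all windows were 0.904%, 1.74% and 13.6%. Windows were at hand for 7 of the 9 genes. Among the others, Cd79a had the E-box at -154, Vpreb3 the octamer at -45, and Blnk the E-box at -160 and the octamer at -130. These matches are letters in a window and were not set against binding data.

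Vpreb3 codes for a small protein that binds newly made mu chains in pre-B cells. It read 149.1, 150.6 and 166.9 on the SSA arrays, against 150.3, 136.9 and 142.6 on the sham arrays. It was detected on 2 SSA arrays and 1 sham array, just enough for the filter of 3 arrays. The highest reading, on SSA 3, was 4.56 background SDs above the background mean. The normalised log2 signal was 5.25 ± 0.47 in SSA cells and 4.87 ± 0.26 in sham cells (SD, n = 3 each), a difference of 0.38 ± 0.26 (SE, limma adjusted p = 0.672), and 0.11 without SSA 3. Vpreb1, Igll1 and Vpreb3 thus shared their highest array, and none of the 3 differed between the groups by the test.

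Dntt codes for terminal deoxynucleotidyl transferase, which adds bases at the joints of rearranging receptor genes. It read 322.8, 218.6 and 203.4 on the SSA arrays, against 444.1, 174.7 and 345.5 on the sham arrays. All 6 readings were clear of background, sham 1 was highest and sham 2 lowest, and the SSA arrays lay between these. The normalised log2 signal was 6.98 ± 0.73 in SSA cells and 7.37 ± 1.01 in sham cells (SD, n = 3 each). The difference was -0.39 ± 0.53 (SE, limma adjusted p = 0.846), the only one below 0 among the B lineage genes kept, with a 95% interval from -1.62 to 0.84. It was -0.91 without sham 2 and 0.097 without sham 1. The nearest profile belonged to the row of heavy chain variable segment IGHV1S28, at 0.10. That row was near background, at 166.2, 119.3 and 132.7 on the SSA arrays, against 195.3, 123.7 and 161.1 on the sham arrays. It was detected on SSA 1, sham 1 and sham 3 alone. Then came Satb1, a chromatin organiser of lymphoid cells, at 0.22, which read 590.8, 481.6 and 363.6 on the SSA arrays, against 760.0, 303.7 and 715.6 on the sham arrays, and the unnamed row LOC384421 at 0.23.

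Across the kept B lineage genes the spread between arrays was unequal. The SD of log2 signal over all 6 arrays was 0.84 for Ighm, 0.82 for Dntt, 0.55 for Vpreb1, 0.40 for Vpreb3 and 0.14 for Cd79b, against a median of 0.24 over all genes kept. Ighm and Dntt, both highest on sham 1 and low on sham 2 and SSA 2, with Dntt low on SSA 3 as well, stood 0.36 apart as centred profiles, a pair chosen after the values had been seen.

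Blnk, the adaptor that ties the receptor to its downstream kinases, was detected on 0 of the 6 arrays, with raw signals of 137.7, 129.2 and 136.0 in SSA cells, against 132.0, 127.4 and 134.1 in sham cells. Pax5, the factor that keeps B cells committed, was likewise detected on 0 arrays, at 140.7, 147.6 and 134.1 in SSA cells, against 137.7, 137.2 and 134.8 in sham cells. Ebf1, which opens B lineage genes before Pax5 is made, was detected on SSA 2 alone at 152.1, with 131.4 and 133.2 on the other SSA arrays, against 139.3, 130.6 and 129.3 in sham cells. The row EBF, an older name of Ebf1, was detected on no array. Background means were 126.1 to 137.7, so these 3 genes gave no level that could be compared. In the fit without a detection filter their log2 differences were 0.031 ± 0.096 for Blnk, 0.082 ± 0.18 for Ebf1 and 0.0040 ± 0.14 for Pax5 (SE), with limma adjusted p from 0.955 to 0.999. In that fit 0 of 28888 genes were called and 7.12% had an unadjusted p under 0.05, these 3 genes not among them. A transcript too scarce to stand out from background on these arrays cannot be told apart here from one that was absent.

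**Figure D4:**
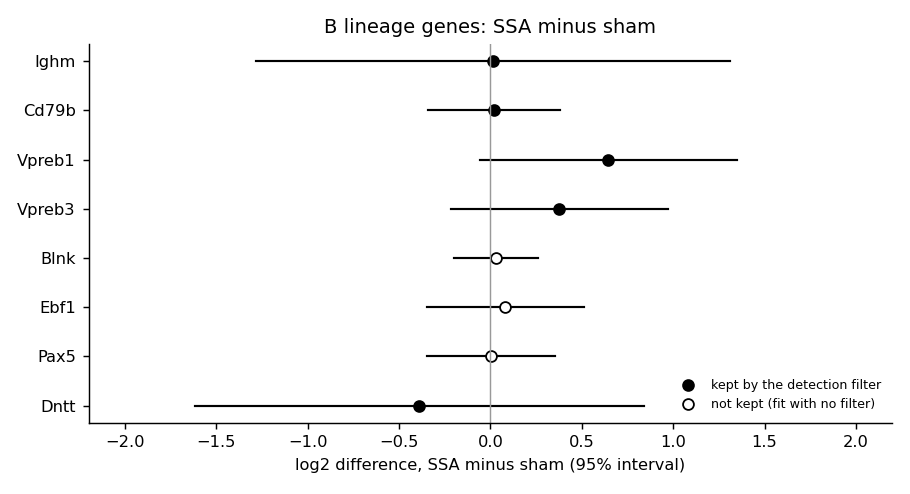
Log2 difference, SSA minus sham (x axis), of the 8 B lineage genes with a row, with 95% intervals from limma. Filled points were kept by the detection filter and open points come from the fit with no filter. Every interval includes 0, and those of Ighm and Dntt are the widest.

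The wider B lineage machinery was counted in lists written with earlier results of these data known. Of 10 genes for chains of the pre-B and B cell receptor, 7 had a row and 6 were kept, 5 higher and 1 lower after SSA, with a median log2 difference of 0.20 against 0.0084 over all genes kept. All 6 kept genes are described above, so the median adds nothing to their values, and it was -0.16 without SSA 3 and 0.52 without SSA 2. Of 16 co-receptors and proximal signalling molecules, 9 were kept, 7 higher and 2 lower, with a median of 0.13 that was 0.0044 without sham 2 and 0.080 without SSA 3. Cd81, a partner of the co-receptor that many blood cells share, read 6485.0, 7782.7 and 6604.7 in SSA cells, against 7175.0, 5712.9 and 7666.1 in sham cells. The inhibitory Fc receptor Fcgr2b had a log2 difference of -0.28 ± 0.15 (SE, limma adjusted p = 0.602) and was below every sham array on all SSA arrays after normalisation. Ptpn6, a phosphatase that damps receptor signals, Cd72, an inhibitory receptor, and Plcg2, a phospholipase of the receptor cascade, stood at 0.17, 0.19 and 0.15, with the arrays of both groups overlapping. Cd22, Cr2, Blk, Lyn and Bank1 were detected on no array. In each of these lists 0 genes were called.

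Of 10 genes for antigen receptor gene recombination, 5 were kept, 1 higher and 4 lower after SSA, with a median log2 difference of -0.18. Leaving out sham 1 put that median at -0.044, leaving out sham 3 put it at -0.090, and the neqc background gave -0.025. Prkdc, the kinase subunit of the joining complex, read 182.4, 197.2 and 179.9 in SSA cells, against 210.5, 187.4 and 234.0 in sham cells. Its log2 difference was -0.39 ± 0.13 (SE, limma adjusted p = 0.563), with all SSA arrays below all sham arrays after normalisation. The nuclease gene Dclre1c stood at -0.18 ± 0.15, the joining factor Nhej1 at 0.090 ± 0.19 and the end-binding subunit Xrcc6 at -0.020 ± 0.13 (SE). The recombinase genes were near background, with Rag1 detected on 1 array and Rag2 on 0. Dntt was thus clear of background on arrays that measured neither recombinase gene, Rag1 on 1 array apart.

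Of 18 transcription factors of the B lineage, 8 were kept, 4 higher and 4 lower, with a median log2 difference of -0.027 that ran from -0.18 without sham 2 to 0.068 without sham 3. Pou2f2, an octamer-binding factor active in lymphoid cells, read 197.6, 193.4 and 189.6 in SSA cells, against 165.1, 153.1 and 171.0 in sham cells. All SSA arrays were above all sham arrays, and the log2 difference of 0.72 ± 0.16 (SE) did not pass adjustment over all genes kept (limma adjusted p = 0.563). Its coactivator Pou2af1 stood at -0.34 ± 0.19, and Tcf3, which codes for E2A and was read from the row TCFE2A, at -0.59 ± 0.34 (SE). Sox4, a factor of early lymphoid and stem cells, stood at 0.12 ± 0.16 (SE). Bcl11a and Tcf4 had raw signals far above background and yet failed the detection filter. The detection score passed Bcl11a on sham 2 alone, where its signal was lowest, and Tcf4 on no array. Bcl11a read 1138.7, 1312.0 and 1109.4 in SSA cells, against 1259.5, 819.3 and 1461.9 in sham cells, and Tcf4 read 978.1, 1112.5 and 705.1 in SSA cells, against 906.9, 560.7 and 922.1 in sham cells.

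Of 12 genes of lymphoid priming, 9 were kept, 5 higher and 4 lower, with a median log2 difference of 0.097 that ran from 0.0096 without sham 2 to 0.17 without sham 1. Cd27, a receptor of the tumour necrosis factor family found on early lymphoid progenitors and stem cells, read 2644.2, 2884.8 and 2486.3 in SSA cells, against 2595.7, 1262.8 and 2914.9 in sham cells, a log2 difference of 0.44 ± 0.23 (SE, limma adjusted p = 0.602). The shared cytokine receptor chain Il2rg stood at 0.25 ± 0.19 and the survival gene Bcl2 at 0.17 ± 0.19 (SE). Il7r, whose product carries the main growth signal of B precursors in mice, was detected on SSA 2, sham 1 and sham 2. Its raw signals over all arrays were 137.1 to 146.7 in SSA cells, against 138.5 to 142.1 in sham cells. Flt3, a receptor of multipotent and lymphoid progenitors, was detected on 1 array. Of 8 genes that Ebf1 and Pax5 are known to oppose, 4 were kept, 2 higher and 2 lower, with a median of -0.050 that ran from -0.14 without sham 2 to 0.060 without sham 3. They were Id2, an inhibitor of E proteins, at -0.35 ± 0.33, the myeloid factor Cebpb at -0.18 ± 0.18, the T lineage factor Gata3 at 0.21 ± 0.21 and Zbtb16 at 0.085 ± 0.19 (SE).

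**Figure D5:**
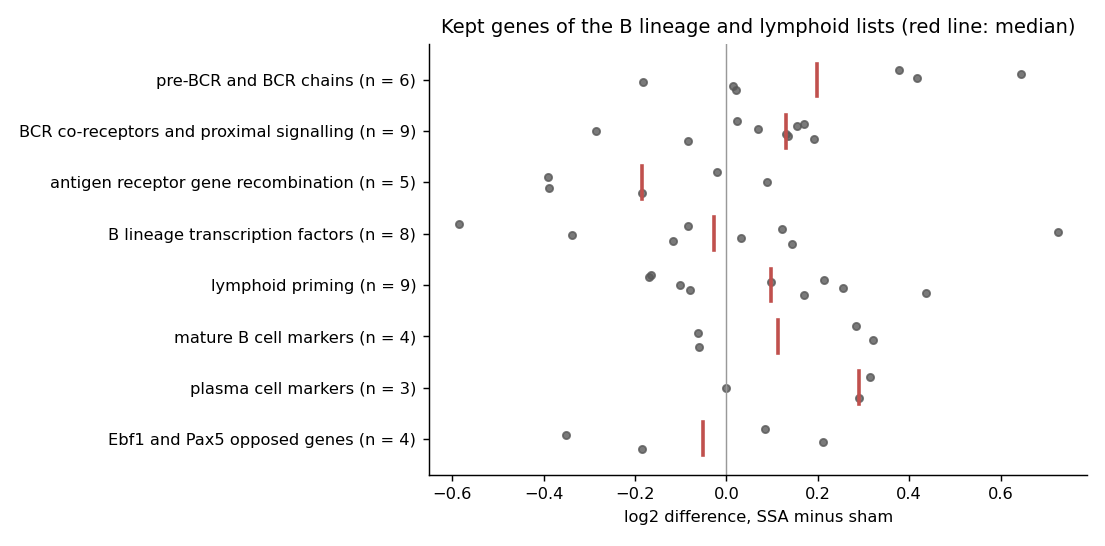
Log2 difference, SSA minus sham (x axis), of each kept gene (grey points) in 8 lists of B lineage and lymphoid genes (y axis, with the number kept), with the list median as a red bar. Medians run from -0.18 to 0.29, the highest point is Pou2f2 at 0.72, and the lowest is Tcf3 at -0.59.

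Markers of mature B cells and plasma cells were set beside the immunoglobulin signal, since such cells carry large amounts of it. Ms4a1, Cd22, Cr2, Fcer2a and Cd40, which define mature B cells, were detected on no array. Of 14 mature B cell markers 4 were kept, 2 higher and 2 lower, with a median log2 difference of 0.11 that ran from 0.0084 without sham 3 to 0.21 without sham 1. These were Faim, Ly86 and Cd37, genes that other blood cells use as well, and Fcrla, an Fc receptor-like gene found mostly in B cells. Fcrla was detected on 5 of 6 arrays, at 140.3, 146.3 and 142.6 in SSA cells, against 145.4, 135.1 and 146.7 in sham cells. Detected but not kept were Fcmr, on SSA 3 at 163.5 and sham 1 at 146.2, Cxcr5, on SSA 3 at 139.7 and sham 2 at 137.5, and Cd83, on SSA 2 at 152.7. The summed signal above background of the list ran from 513.6 to 613.2 over SSA arrays and from 540.9 to 614.1 over sham arrays. It was 569.8 on SSA 2 and 571.3 on sham 2, the arrays lowest in Ighm. This sum was mostly the signal of Cd37 and Faim, so it says little about B cells. Of 8 plasma cell markers 3 were kept, with a median of 0.29. Without sham 2 it was 0.20, without SSA 3 0.17, and without a filter 0.00042. Jchain, Sdc1, Prdm1 and Irf4 were detected on no array. Tnfrsf17, a survival receptor of plasma cells, was detected on 2 arrays, sham 1 at 146.0 and sham 3 at 161.3, both high in Ighm. It was not detected on SSA 1 or SSA 3, where Ighm read 8337.5 and 8795.4, above the 7886.5 of sham 3. Xbp1, a factor of the secretory pathway in many cells, stood at 0.31 ± 0.16, Fkbp11, a folding enzyme, at 0.29 ± 0.16, and Mzb1, a chaperone of mu chain assembly, at -0.0010 ± 0.26 (SE). Their summed signal ran from 3299.9 to 3867.7 over SSA arrays and from 2214.3 to 3748.8 over sham arrays, mostly that of Xbp1. The part of other cells in the Ighm and Igkc signal was not tested.

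The label of the cells was set against 12 LT-HSC markers, of which 11 were kept and Procr was detected on no array. Ly6a, the Sca-1 antigen, had a log2 difference of 0.89 ± 0.31 and Kit, the stem cell factor receptor, one of -0.31 ± 0.14 (SE, limma adjusted p = 0.563 and 0.593). Markers of other blood cells were present too. All 10 kept neutrophil and monocyte markers, all 6 kept erythroid ones and all 5 kept eosinophil and Ear genes had lower means after SSA. Their median log2 differences were -0.98, -0.51 and -1.89. All 15 kept immediate-early genes, which do not mark 1 cell type, were also lower, with a median of -1.86. Of all these Ear6 alone was called, at -2.11 ± 0.18 (SE, limma adjusted p = 0.031). These medians moved with single arrays. That of the neutrophil and monocyte list ran from -2.003 without sham 3 to -0.10 without SSA 1, was -1.63 without SSA 3 and -0.28 without sham 1, and was 0.0085 with array weights. The erythroid median ran from -0.85 without sham 1 to -0.075 without SSA 1, and was -0.10 without sham 2. The eosinophil and Ear median ran from -2.28 without SSA 3 to -1.27 without SSA 2, and was -0.28 with neqc. The immediate-early median ran from -2.61 without sham 1 to -1.45 without sham 3. The neutrophil and monocyte sum above background ran from 2360.1 to 6129.5 over SSA arrays and from 4549 to 12580 over sham arrays. Of the T and NK cell markers 4 of 14 were kept, with a median of -0.20 and sums of 5017.3 to 6525.2 over SSA arrays and 6076.4 to 9879.7 over sham arrays. Their median ran from -0.28 without sham 1 to -0.14 without SSA 2, and was 0.0046 without a filter. All 4 kept plasmacytoid dendritic cell markers had higher means after SSA, with a median of 0.064 that ran from -0.082 without SSA 3 to 0.23 without SSA 2. The part of other blood cells in the B lineage values was not tested.

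Between 35.8% and 37.7% of the rows were detected on each array, and the median bead number was 44 on all of them. Pearson correlations of normalised log2 signal between arrays were 0.955 to 0.988. Of the variance, 45.7% lay on the first principal component, with sham 2 farthest out at 41.7. The array numbers in the column headers put every SSA array before every sham array. If that order reflects batches, batch and SSA cannot be told apart, and the number of arrays limits the precision of every value above.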

How the data were processed

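Gene-level array signals of LT-HSC, 3 SSA and 3 sham, were analysed. The authors deposited them as linear intensity values from GenomeStudio 1.8.0, without normalization per the file headers, which also name the mouse whole-genome content. The signal is 1 value per row and array, with a bead SD and a bead number beside it, from which the standard error over beads was computed as the SD over the square root of the number. The detection score that the authors deposited is a fraction from 0 to 1, and 1 minus it was used as a detection p. The authors' series matrix, also intensity, differed from the raw signal by a constant on each array, to within 0.1, and served as an alternative.

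Current symbols for the rows came from a RefSeq table of GRCm38.p6, used for names only. In limma 3.58.1 (R 4.3.3), signals were background-corrected by normexp, with each array's background mean and SD taken from where the signal's detection score passes 0.5 and from its span between 0.16 and 0.84, given an offset of 16, quantile-normalised and put on the log2 scale. The usual neqc fit was an alternative, because its background mean of 168.0 to 204.2 lay above the median raw signal of 132.3 to 145.3. The filter kept rows detected (p under 0.05) on 3 or more of the 6 arrays, and the brightest row stood for a gene. SSA was compared with sham by lmFit and eBayes, two-sided, with group as the only term and Benjamini-Hochberg adjustment over the 10821 genes kept. The steps were tested on simulated data. Differences of genes near background depend on the offset.

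The members, the lists, the rule for named genes and the settings were chosen with earlier results of these data known. Named were all members, up to 4 genes of smallest p and 2 of highest mean in each B lineage list, and the 3 brightest of other cell type lists in part. For members with an SD over 0.5 the 3 nearest profiles were named. Genes outside the rule are named as undetected, detected on too few arrays for the filter, or chosen after their values were seen. Alternatives covered background, offset, scaling, filter, array weights, the replicate block and leaving out each array. Of the 9 genes, Cd79a was not analysed here. A few list genes are not reported here.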

Additional observations from a re-analysis of the deposited data

How the results depend on the processing

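The number of B lineage genes called stayed at 0 in all 16 alternatives. Over all genes, limma called 1 in the reported fit, 0 with neqc, 0 without background correction, 0 without a filter, 3 with a median shift per array, 4 with the replicate block and 1439 with array weights, and 0 to 4 with 1 array left out. The array weights rested mostly on sham 3, whose weight was 6.62. At an unadjusted p under 0.05 stood 918 genes in the reported fit, 530 with a median shift, 2058 without a filter, 3586 with array weights and 441 to 1753 with 1 array left out. Of these, 56% were higher after SSA in the reported fit and 27.2% with a median shift. Over all genes kept, replicate numbers did not consistently pair the arrays (correlations of deviations 0.40, -0.0086 and -0.19). The fit with the replicate block called 0 B lineage genes. Its SE was smaller for Ighm, at 0.21 against 0.56 in the reported fit, and for Dntt, at 0.23 against 0.53. For Vpreb1 the SE was 0.30 in both fits. For Cd79b it was 0.18 against 0.16, and for Vpreb3 0.27 against 0.26. Ighm was low on SSA 2 and sham 2, which share a replicate number.

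Of 128 values of the B lineage genes under the alternatives, 110 kept their sign and 18 did not. The log2 difference of Pax5 was -0.00042 with an offset of 50, that of Cd79b was -0.088 with a median shift and -0.12 with array weights, and that of Ighm was -0.16 with array weights. With 1 array left out, the differences ran from -0.45 to 0.57 for Ighm, -0.070 to 0.077 for Cd79b, 0.30 to 0.92 for Vpreb1, 0.11 to 0.53 for Vpreb3, -0.91 to 0.097 for Dntt, -0.014 to 0.11 for Blnk, -0.087 to 0.18 for Ebf1 and -0.12 to 0.12 for Pax5. With neqc they were 0.11 for Vpreb1 and 0.022 for Vpreb3, which lie close to the background that neqc sets. Adjusted p for Vpreb1 ran from 0.0740 to 0.986. Of 240 list medians, 210 moved by less than the spread between arrays. The cause of these changes was not tested.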
